A study of Mus musculus with 27 samples.

Results

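The genes described here are 34 genes of autophagy and the lysosome, followed through a reproductive cycle of the mouse liver. They were taken as a list of symbols and matched by gene identifier to the 51826 genes of the deposited tables. The list holds 17 genes of the autophagy machinery, which were treated apart from 17 genes of lysosomal enzymes, membrane proteins and acidification. All 34 matched 1 identifier each, and all 34 were among the 16428 genes with enough counts to test.

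Bulk RNA sequencing was done on flash-frozen, pulverized whole livers of wildtype BALB/c mice. Breeding animals were mated when 10 to 12 weeks old. Litters were evened out in size, and pups were taken away between days 10 and 14 of lactation. The 27 animals fell into 7 groups: 4 nulliparous animals that had not been pregnant (NUL), 3 at day 10 of lactation (LAC), 3, 4, 6 and 3 at days 2, 4, 6 and 8 after weaning (involution, ID2 to ID8), and 4 regressed animals at 4 weeks after weaning (REG). No transgene, deletion or drug was part of any group, and the ages at collection are given only as matched.

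Autophagy wraps cytoplasm in a double membrane that fuses with the lysosome, where acid hydrolases break the content down and return amino acids, lipids and sugars. ULK1 and Beclin 1 start the membrane, a conjugation system built from the ATG proteins attaches proteins of the LC3 and GABARAP families to it, and receptors such as p62 and NBR1 bring in cargo. The transcription factors TFEB and TFE3 act on many lysosomal and autophagy genes through the CLEAR element, an extended E-box. In the liver, autophagy is known for supplying nutrients in fasting and for reducing cell mass.

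The promoters of 5 members are shown because they differ in the E-box core CACGTG, set in capitals, that lies inside the CLEAR element. Hexa, Gabarapl1, Ctsa and Ctsd are among the members that differed across the stages, and Lamp1, which is not among them, holds the most cores. Each sequence runs 5′ to 3′ along the gene, from 250 bases before to 30 bases after a RefSeq transcription start (assembly GRCm38.p6). Ctsa lies at chr2:164833523-164833802 on the plus strand, Ctsd at chr7:142387798-142388077 on the minus strand, Lamp1 at chr8:13158911-13159190, Hexa at chr9:59539290-59539569 and Gabarapl1 at chr6:129532942-129533221, the last 3 on the plus strand.
Ctsa: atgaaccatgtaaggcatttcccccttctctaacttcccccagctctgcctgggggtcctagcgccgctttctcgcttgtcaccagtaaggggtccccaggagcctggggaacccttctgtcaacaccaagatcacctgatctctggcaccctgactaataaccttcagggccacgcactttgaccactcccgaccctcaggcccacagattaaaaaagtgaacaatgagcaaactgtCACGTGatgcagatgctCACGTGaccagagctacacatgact
Ctsd: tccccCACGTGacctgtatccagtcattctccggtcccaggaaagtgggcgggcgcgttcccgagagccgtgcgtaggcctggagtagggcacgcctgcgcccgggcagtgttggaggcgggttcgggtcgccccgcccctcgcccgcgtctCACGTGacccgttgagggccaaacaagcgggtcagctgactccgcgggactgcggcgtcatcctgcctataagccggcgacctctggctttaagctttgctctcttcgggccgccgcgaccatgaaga
Lamp1: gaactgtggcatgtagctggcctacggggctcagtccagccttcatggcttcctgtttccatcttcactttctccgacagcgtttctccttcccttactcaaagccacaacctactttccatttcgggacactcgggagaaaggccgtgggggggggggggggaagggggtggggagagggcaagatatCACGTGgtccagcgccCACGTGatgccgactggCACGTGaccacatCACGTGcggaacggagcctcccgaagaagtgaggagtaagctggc
Hexa: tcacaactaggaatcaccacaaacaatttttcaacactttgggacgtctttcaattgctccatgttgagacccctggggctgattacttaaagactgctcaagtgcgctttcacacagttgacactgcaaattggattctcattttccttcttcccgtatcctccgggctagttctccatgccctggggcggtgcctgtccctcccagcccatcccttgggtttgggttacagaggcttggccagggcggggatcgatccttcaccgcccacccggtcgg
Gabarapl1: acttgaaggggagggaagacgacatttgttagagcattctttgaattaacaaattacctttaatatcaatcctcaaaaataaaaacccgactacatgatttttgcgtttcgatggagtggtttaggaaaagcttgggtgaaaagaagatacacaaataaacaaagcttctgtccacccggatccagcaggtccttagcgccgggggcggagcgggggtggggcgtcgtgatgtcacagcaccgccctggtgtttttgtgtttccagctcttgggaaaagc
The letters CACGTG, which read the same on both strands, were searched in the RefSeq windows of 300 bases around each start. A window was at hand for 28 members, 12 of which (42.9%) held the core, against 8.09% of 27025 genes with a window. The core was found for 9 of 15 lysosomal members and 3 of 13 autophagy members (Atg3, Atg5 and Atg7). Lamp1 held 4 cores, and Ctsa, Ctsd, Mcoln1 and Atg3 held 2 each. Ctsa has 2 windows; the one shown, at a start inside the gene, held both cores and the other held none. No member window held the full CLEAR element, searched on both strands as the core with GT directly before and AC directly after it, which was found in 0.326% of all 32851 windows. Hexa and Gabarapl1, the members with the largest differences between stages, held no core, which says only that these letters are not in these windows.

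The libraries held between 41120650 and 75664540 estimated read counts. Genes that mark hepatocytes were high in every library, and none of the 12 macrophage and Kupffer cell markers was at 0 in any library. The summed level of 10 genes of the exocrine pancreas was 1734 CPM (read counts scaled by library size) in ID2_31, animal 31 of involution day 2, and 138 CPM in ID4_15, against at most 43.1 CPM in the others. The numbers in the animals' names fall under 200 for 2 animals of involution day 2, 2 of involution day 4 and all 3 of involution day 8, and at 200 or over for the other 20 animals. What these numbers stand for is not given in the sources used here. A fit with this split as a covariate, called the name number here, rests on involution days 2 and 4, since involution day 8 has no animal at 200 or over. In whole liver, fewer cells of a type and less RNA per cell cannot be told apart.

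Per length, Ctsl (cathepsin L, a cysteine protease) was the most abundant member, at a median level of 555 TPM (transcripts scaled by gene length and library size) over the 27 libraries. It was followed by Lamp1 at 411 TPM, the p62 gene Sqstm1 at 370 TPM, and Gabarapl1 and Lamp2 at 300.04 and 300.4 TPM. The least abundant were Tfeb at 5.86 TPM and Wipi1 at 5.54 TPM. The 17 lysosomal members summed to 2483 ± 72.6 TPM (SD, n = 4) in nulliparous liver and 2785 ± 64.9 TPM (SD, n = 4) at involution day 4. The 17 autophagy members summed to 1327 ± 62.9 TPM (SD, n = 4) and 1499 ± 71.6 TPM (SD, n = 4) in the same stages, of which Gabarapl1 alone made up 290.5 and 435 TPM. In both sums the lowest library of involution day 4 lay above the highest nulliparous library. The lysosomal sum also lay above every nulliparous library at involution day 2 (2662 to 2791 TPM), day 6 (2631 to 2771 TPM) and day 8 (2607 to 2653 TPM). It overlapped with nulliparous liver at lactation day 10 and in the regressed liver. At involution day 2 the autophagy sum was lower, at 1167 to 1239 TPM against 1268 to 1393 TPM in nulliparous liver, with no overlap. Gabarapl1 had a mean of 236 TPM there against 290.5 TPM, and Sqstm1 324 against 374 TPM. In that comparison edgeR called 0 of the 17 autophagy members. Their median log2 fold change was -0.02, and that of all genes was -0.02.

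Across the 7 stages, 15 of the 34 members differed (edgeR quasi-likelihood test of all stages together, Benjamini-Hochberg adjusted p under 0.05), against 27% of all genes tested. They were 10 of the 17 lysosomal members and 5 of the 17 autophagy members, the latter a share near that of all genes. The lysosomal members were Hexa, Ctsa, Ctsz, Ctsl, Ctsb, Psap, Lamp2, Ctsd, Glb1 and Atp6v1a, and the autophagy members were Gabarapl1, Atg5, Map1lc3a, Tfe3 and Nbr1. The differences were moderate in size: the highest stage mean of a member exceeded its lowest by a ratio between 1.07 for Lipa and 1.84 for Gabarapl1, with a median of 1.25. Of the 34 members, 16 passed neither the joint test nor any of 11 comparisons of 2 stages by edgeR, 11 of them autophagy genes and 5 of them lysosomal.

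**Figure D1:**
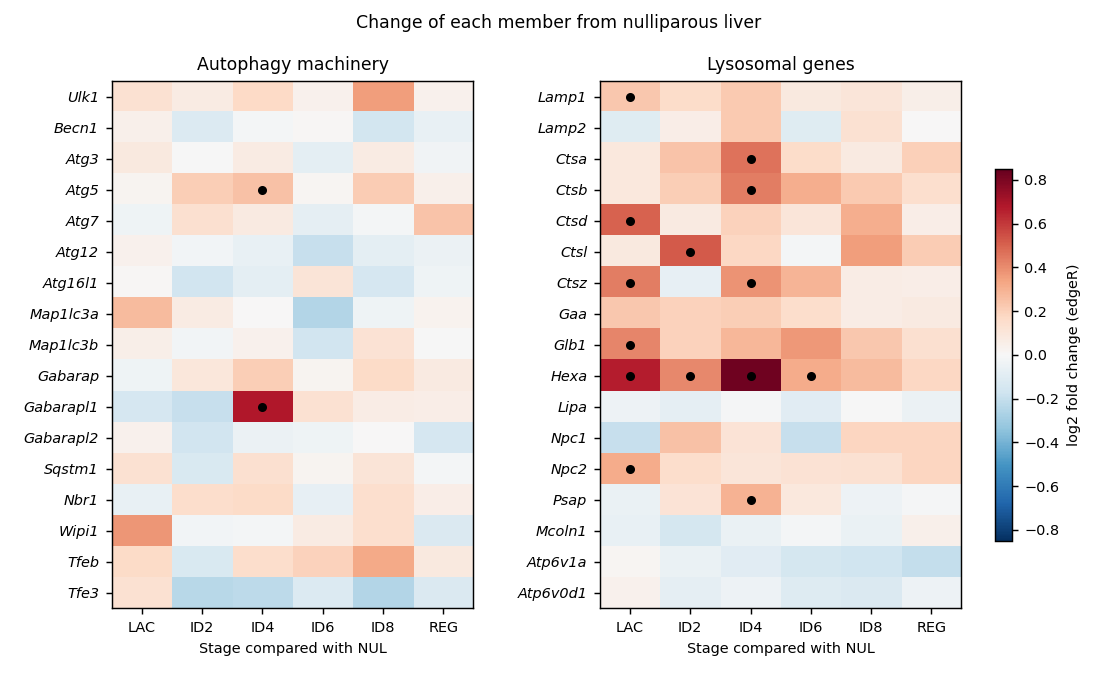
Difference of each stage from nulliparous liver for the 34 members (log2 fold change, colour), the autophagy machinery and the lysosomal genes in separate blocks, with marks on the values called at an adjusted p under 0.05. Hexa has the largest value at lactation day 10 (0.67) and involution day 4 (0.82), and no value is called at involution day 8 or in the regressed liver.

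At lactation day 10, 6 members were called against nulliparous liver, where 11.2% of all genes were called and 5.19% were called as higher. All 6 were lysosomal and higher: Hexa, Ctsd, Ctsz, Glb1, Npc2 and Lamp1. No autophagy member was called by edgeR, and DESeq2 called 1. An unadjusted edgeR p under 0.05 was found for 2 of the 17, against 3885 of all 16428 genes. The median log2 fold change was 0.09 over the lysosomal members, 0.04 over the autophagy members and -0.01 over all genes. Macrophage and Kupffer cell markers went the other way: 8 of 12 were lower, and their sum was 336 to 470 CPM against 507 to 639 CPM in nulliparous liver. The sums of 6 stellate cell markers (165 to 179 CPM against 212.4 to 280 CPM) and 6 sinusoidal endothelial markers (201.8 to 230.5 CPM against 255 to 294 CPM) were also lower without overlap, with 2 and 1 of the 6 called. The sum of 5 erythroid markers was higher without overlap (768 to 1016 CPM against 335 to 712 CPM), with 0 called by edgeR or DESeq2 and 0 at an unadjusted p under 0.05. The sum of 10 hepatocyte markers was 191327 to 234479 CPM against 103794 to 132596 CPM, with 1 marker called higher (Alb, albumin, by 0.98 on the log2 scale) and 1 lower (Cyp2e1, -1.49). Most of that sum was Alb, with a mean of 177113 of 208266 CPM in lactation and 89786 of 121858 CPM in nulliparous liver. The part of these markers in the member differences was not tested.

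At involution day 2, 2 members were called against nulliparous liver, Ctsl and Hexa, both higher, where 3.24% of all genes were called and 2.32% were called as higher. Neither was called with the clock genes as a covariate, whose values are given with Ctsl. Of 12 clock genes 4 were higher and 2 lower in this comparison, and the hepatocyte sum was higher without overlap (148057 to 161013 CPM against 103794 to 132596 CPM), with Cps1 (0.62) and Ass1 (0.67) called. Most of that sum was Alb, which was not called here. Its mean was 120155 of 155493 CPM at involution day 2 and 89786 of 121858 CPM in nulliparous liver. The part of the hepatocyte markers was not tested. Against lactation day 10, the same libraries gave 4 called members, where 16.1% of all genes were called, 8.48% as higher and 7.64% as lower. Ctsl was higher and Ctsz, Ctsd and Tfe3 were lower. Both comparisons use the libraries of involution day 2, and without ID2_31 the second had 2 called members. The members' share in the second comparison lay below that of all genes. In that comparison 8 of 12 macrophage and Kupffer cell markers and 4 of 6 sinusoidal endothelial markers were higher at involution day 2, and of the hepatocyte markers Cyp2e1 (1.117) and Ass1 (0.63) were higher and Alb (-0.56) was lower on the log2 scale. The stellate sum was higher without overlap (201.7 to 223.8 CPM against 165 to 179 CPM, 1 of 6 called), 4 of 10 pancreas markers were higher, and of 12 clock genes 2 were higher and 2 lower. The part of these cell markers in the member differences was not tested.

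At involution day 4, 7 members were called against nulliparous liver, all higher, where 4.25% of all genes were called and 2.64% were called as higher. On log2(TPM + 1), limma called 3 members. Of the 518 genes it called in all, 46.1% were higher, against 62.2% of the edgeR calls. The 7 were the lysosomal Hexa, Ctsa, Ctsb, Ctsz and Psap and the autophagy genes Gabarapl1 and Atg5. The median log2 fold change was 0.21 over the lysosomal members, 0.07 over the autophagy members and -0.02 over all genes; on the log2(TPM + 1) scale the autophagy median was -0.02 and that of all genes -0.05. Against involution day 2, 3 members were called, Gabarapl1, Ctsz and Hexa, all higher, where 1.49% of all genes were called and 0.645% were called as higher. With the clock genes as a covariate, 0 were called. The clock measure, defined with Ctsl below, was -0.17, 2.39 and 2.79 at day 2 and 3.12 to 4.71 at day 4. Since these did not overlap, that fit cannot tell clock measure and stage well apart. The log2 fold change of Gabarapl1 was between 0.65 and 0.96 under every alternative run. On log2(TPM + 1), limma called 3 members higher and 1 lower (Ctsl, by -0.36) in this comparison, and 253 genes in all, 45.8% of them higher. Macrophage and Kupffer cell markers were also higher at involution day 4, 8 of 12 against nulliparous liver and 7 of 12 against involution day 2. Their sum was 812 to 901 CPM at involution day 4 and 463 to 579 CPM at involution day 2. Against nulliparous liver the stellate marker Reln was lower (-0.53 on the log2 scale) and the clock gene Tef higher (0.77). Against involution day 2 the clock gene Ciart was lower (-3.53, from a mean of 1.21 to 0.10 CPM). The hepatocyte sum was lower at day 4 than at day 2 without overlap (102926 to 117423 CPM against 148057 to 161013 CPM), with Alb (-0.62) and Ass1 (-0.80) called lower and Cyp2e1 (0.77) higher. Alb made up a mean of 78298 of 110924 CPM at day 4. The part of these markers in the member differences was not tested.

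Between involution days 4 and 6, 6 members were called and all were lower at day 6: Hexa, Lamp2, Ctsa, Gabarapl1, Atg5 and Nbr1. Among all genes, 8.53% were called in this comparison and 4.64% were called as lower. The medians of both lists were below 0, at -0.13 for the autophagy and -0.09 for the lysosomal members, against 0.01 over all genes. On log2(TPM + 1), where the median of all genes was 0.07, the lysosomal median was 0.02, and limma called 3 members lower and 1 higher (Npc2, by 0.17). Of the 1655 genes it called in all, 82.2% were higher, against 45.6% of the edgeR calls. No macrophage and Kupffer cell marker was called by edgeR or DESeq2 between these days, 1 had an unadjusted p under 0.05, and their sum at day 6 was 663 to 1018 CPM. All 5 erythroid markers were lower at day 6, with a sum of 53.1 to 264 CPM against 407 to 1027 CPM at day 4. The hepatocyte marker Cyp2e1 (-0.55) and the clock gene Tef (-0.88) were lower and the clock gene Arntl (0.42) higher at day 6, and the part of these cell markers in the member differences was not tested. Against nulliparous liver, Hexa was the 1 member still called by edgeR at involution day 6, where 1.08% of all genes were called and 0.402% were called as higher. DESeq2 called 3 members and limma on log2(TPM + 1) called 4. Of the 200 genes that limma called in all, 65.5% were higher, against 37.1% of the edgeR calls. In that comparison 5 of 12 macrophage and Kupffer cell markers were higher and 4 of 5 erythroid markers lower, and their part was not tested.

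Between involution days 6 and 8, 2 members were called, Map1lc3b and Ctsl, both higher at day 8, where 4.12% of all genes were called and 2.37% were called as higher. On log2(TPM + 1), limma called neither as higher and 3 members lower (Psap, Ctsz and Atg16l1). Of the 857 genes it called in all, 16.6% were higher, against 57.6% of the edgeR calls. The autophagy median, 0.11 on the count scale, was -0.04 where that of all genes was -0.07. The markers of macrophages and Kupffer cells were lower at day 8 in 6 of 12 cases and those of erythroid cells in 4 of 5 (sum 19.9 to 35.03 CPM against 53.1 to 264 CPM, with no overlap). The hepatocyte marker Ass1 was higher at day 8 (0.49 on the log2 scale). Of 12 clock genes, 2 were higher and 2 lower at day 8. The part of these cell markers in the member differences was not tested.

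No member was called by edgeR at involution day 8 or in the regressed liver against nulliparous liver, where 0.499% and 0.0852% of all genes were called. DESeq2 called 0 members in both comparisons. An unadjusted edgeR p under 0.05 was found for 8 of 34 members at involution day 8 and 6 of 34 in the regressed liver. Among all 16428 genes the counts were 2105 and 1178. Between the regressed liver and involution day 8, where 0.0487% of all genes were called, edgeR and DESeq2 called 0 members. An unadjusted edgeR p under 0.05 was found for 3 of 34 members and 1481 of all 16428 genes. Hexa at 4 weeks after weaning still had every library (48.0 to 52.0 CPM) above every nulliparous library (42.5 to 45.6 CPM). The log2 difference of 0.18 ± 0.08 (SE) was not called by edgeR (adjusted p = 0.649).

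**Figure D2:**
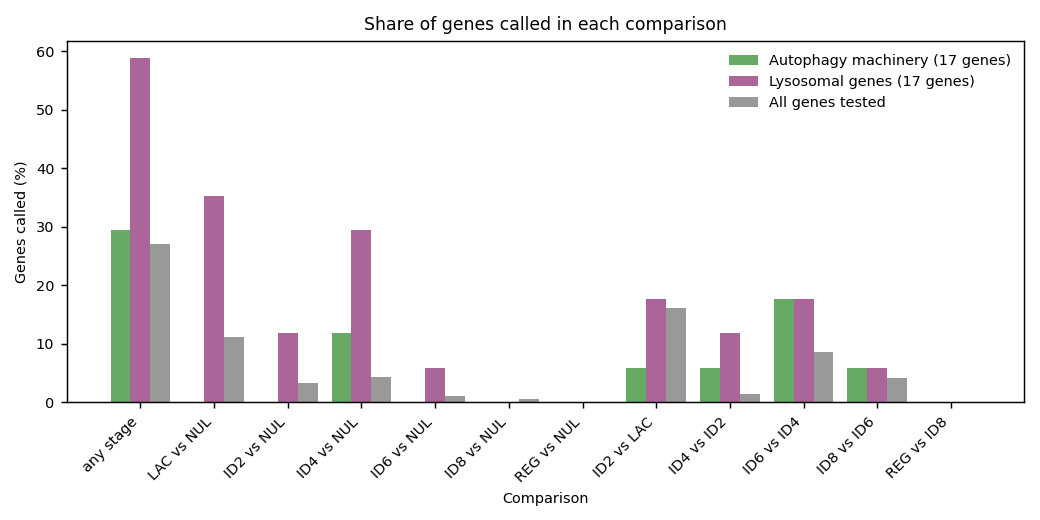
Share of the autophagy members, the lysosomal members and all 16428 genes tested that were called by edgeR at an adjusted p under 0.05 (percent, vertical axis) in the joint test and each of the 11 comparisons (horizontal axis, stage codes NUL, LAC, ID2 to ID8 and REG). Lysosomal members were called in 6 of 17 cases at lactation day 10, where edgeR called no autophagy member and DESeq2 called 1, and in 5 of 17 cases at involution day 4, where edgeR called 2 autophagy members.

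Hexa encodes the alpha subunit of the lysosomal beta-hexosaminidase, which trims gangliosides and glycan chains; the gene lies on chromosome 9 at 59539540 to 59565109 (GRCm38). It had the lowest joint p of the members (edgeR adjusted p = 1.75e-07). The nulliparous libraries held 42.5, 42.7, 45.4 and 45.6 CPM, and the libraries of lactation day 10 held 67.7, 70.7 and 71.0 CPM. Involution day 2 held 57.2, 59.0 and 59.0 CPM, and involution day 4 held 65.6, 80.3, 80.8 and 85.2 CPM. All 10 libraries of lactation and the first 4 days after weaning lay above all nulliparous libraries. Involution day 6 ranged from 47.4 to 61.0 CPM with a median of 54.8 CPM, and involution day 8 held 49.3, 54.0 and 55.8 CPM.

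Against nulliparous liver Hexa rose by 58.6% at lactation day 10 (log2 fold change 0.67 ± 0.08 SE, edgeR adjusted p = 1.45e-05). The rise was 32.7% at involution day 2 (0.41 ± 0.09, adjusted p = 0.00634) and 77.1% at involution day 4 (0.82 ± 0.08, adjusted p = 1.44e-07). At involution day 6 it was 24.4% (0.31 ± 0.07, adjusted p = 0.0228). From involution day 2 to day 4 Hexa rose by 0.42 ± 0.09 on the log2 scale (adjusted p = 0.00889), and from day 4 to day 6 it fell by 0.51 ± 0.07 (adjusted p = 1.13e-04). The values at lactation day 10 and involution day 4 and the fall at day 6 passed under every alternative run. The value at involution day 2 was lost with the name number or the clock genes as a covariate (adjusted p up to 0.121), and that from day 2 to day 4 with the clock genes (0.187) or without ID2_39 (0.0635). The value at involution day 6 was lost in a fit of the compared groups alone (0.107) and without ID6_216 or ID6_232 or NUL_221 or NUL_227 (up to 0.100).

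From the wider list of lysosomal genes, Gm2a, the activator protein that presents GM2 ganglioside to beta-hexosaminidase, was 60.2 ± 7.59 CPM (SD, n = 4) in nulliparous liver and 170 ± 5.99 CPM (SD, n = 3) at lactation day 10, a log2 fold change of 1.497 ± 0.12 (adjusted p = 6.01e-09). By involution day 2 Gm2a was 71.3 ± 0.339 CPM (SD, n = 3), a fall of 1.25 ± 0.13 on the log2 scale from lactation (adjusted p = 8.73e-07).

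**Figure D3:**
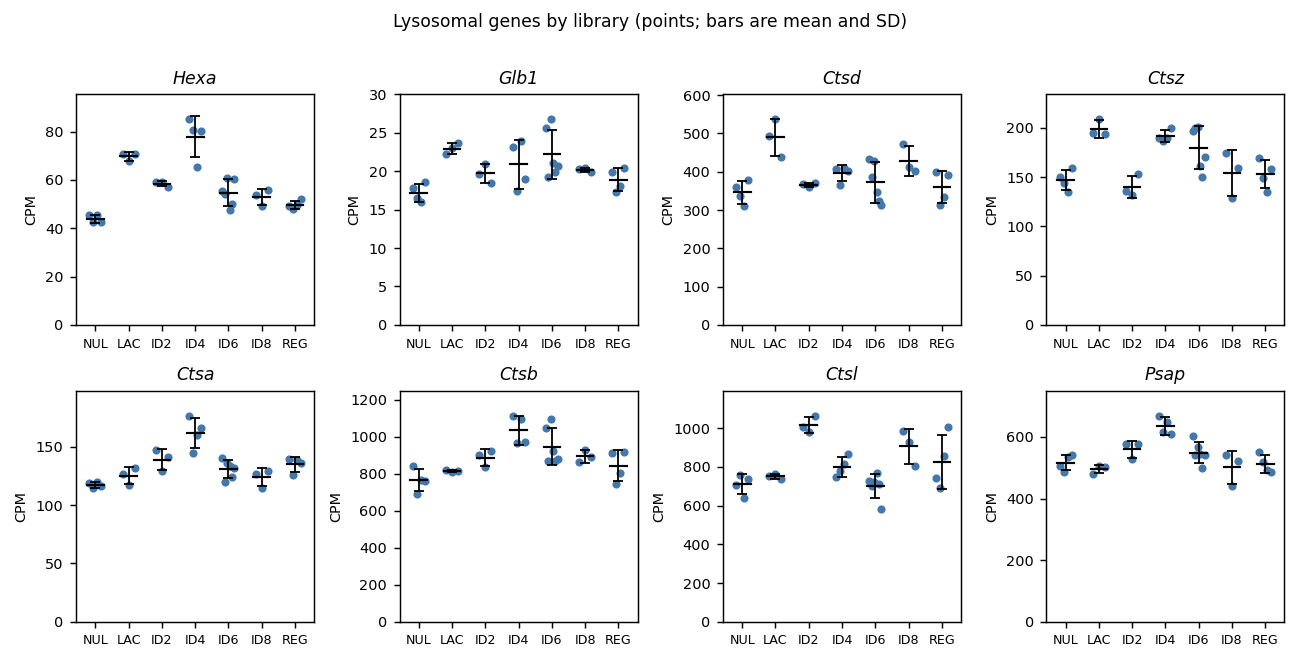
Level of lysosomal members in each library (CPM, vertical axis from 0) by stage (horizontal axis), with bars for the mean and SD of each stage. The libraries of Hexa at involution day 4 sit between 65.6 and 85.2 CPM, all above the nulliparous libraries at 42.5 to 45.6 CPM.

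Glb1, the lysosomal beta-galactosidase, was lower in level, with nulliparous libraries at 15.96, 16.5, 17.8 and 18.6 CPM. The lactation libraries held 22.2, 23.1 and 23.6 CPM, all above the nulliparous ones. The rise of 0.42 ± 0.11 on the log2 scale (edgeR adjusted p = 0.0146) was lost without LAC_240 (0.0556) and on log2(TPM + 1) (0.0635). Gaa, the acid alpha-glucosidase that degrades lysosomal glycogen, ran from 76.5 to 88.2 CPM in nulliparous liver and from 89.7 to 109 CPM at lactation day 10 and was called by edgeR in no comparison.

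Cathepsins are the proteases of the lysosome, and all 5 cathepsin members passed the joint test. Ctsd (cathepsin D, an aspartic protease; chromosome 7, 142375911 to 142388038) held 309, 338, 360 and 377 CPM in nulliparous liver and 440, 493 and 537 CPM at lactation day 10, with no overlap. It rose by 41.6% in lactation (log2 fold change 0.50 ± 0.11, edgeR adjusted p = 0.00360) and kept its call under every alternative run. At involution day 2 its libraries held 360, 368 and 370 CPM, a fall of 0.42 ± 0.12 on the log2 scale from lactation (adjusted p = 0.0169). That fall lost its call without ID2_31 or LAC_213 (up to 0.100) and with the name number or clock genes as a covariate (up to 0.157).

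Ctsz (cathepsin Z, a carboxypeptidase) alternated between stages. Its nulliparous libraries held 135, 144, 150 and 159 CPM, lactation held 193, 194 and 208.8 CPM, involution day 2 held 132, 136 and 153 CPM, and involution day 4 held 187, 189, 190 and 200 CPM. The lactation and involution day 4 libraries overlapped neither the nulliparous libraries nor those of involution day 2. Ctsz rose in lactation by 0.43 ± 0.10 on the log2 scale (edgeR adjusted p = 0.00686), fell by 0.51 ± 0.11 to involution day 2 (adjusted p = 0.00323) and rose by 0.45 ± 0.11 to involution day 4 (adjusted p = 0.0238). At involution day 4 it was 0.38 ± 0.10 above nulliparous liver (adjusted p = 0.0223). The 2 differences that involve lactation passed under every alternative run. The rise to day 4 was lost with the clock genes as a covariate (0.192) and without ID2_224 or ID2_31 or ID4_215 (up to 0.141). The difference from nulliparous liver was lost with the name number (0.0709), on log2(TPM + 1), and without ID4_215 or NUL_221 or NUL_226 (up to 0.0791).

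Ctsl followed another course. Its nulliparous libraries held 637, 707, 739 and 755 CPM and its lactation libraries held 739, 754 and 762 CPM. Involution day 2 was higher, at 979, 1008 and 1063 CPM, and overlapped neither. Ctsl rose at involution day 2 by 43.2% over nulliparous liver (log2 fold change 0.52 ± 0.11, edgeR adjusted p = 0.00634) and by 0.44 ± 0.12 on the log2 scale over lactation (adjusted p = 0.0113). The second difference passed under every alternative run, and the first was lost without ID2_39 (0.0507) and with the clock genes as a covariate (0.105), while its log2 fold change was between 0.46 and 0.60 under every alternative run. The clock measure (Arntl, Npas2 and Clock against Dbp, Per3 and Ciart, a log2 difference) was -0.17, 2.39 and 2.79 at involution day 2 and 4.35 to 5.63 in nulliparous liver. A later rise, from a median of 718 CPM (584 to 767) at involution day 6 to 805, 927 and 986 CPM at day 8, was 0.37 ± 0.10 on the log2 scale (adjusted p = 0.0337). It was lost without ID6_209 or ID6_232 or ID8_101b or ID8_14 (up to 0.194), with the name number, on log2(TPM + 1) and in a fit of the compared groups alone (up to 0.175).

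Ctsa (protective protein, a carboxypeptidase that also stabilizes lysosomal beta-galactosidase and neuraminidase) peaked at involution day 4. Its nulliparous libraries held 115, 116, 119 and 120 CPM, and those of involution day 4 held 145, 160, 166 and 176 CPM, with no overlap. It rose by 0.46 ± 0.07 on the log2 scale (edgeR adjusted p = 2.99e-04) and fell by 0.30 ± 0.07 to involution day 6 (adjusted p = 0.00428), where its libraries ranged from 119 to 140.1 CPM with a median of 133 CPM, all below day 4. Both calls were lost on log2(TPM + 1) (adjusted p = 0.0767 and 0.331 by limma). Across the alternatives the log2 fold change was between 0.25 and 0.51 for the rise and between -0.35 and -0.11 for the fall. Ctsb (cathepsin B, a cysteine protease) held 693, 760, 768 and 842 CPM in nulliparous liver and 968, 970, 1094 and 1112 CPM at involution day 4. The groups did not overlap, and the rise of 0.44 ± 0.09 (adjusted p = 0.00453) passed under every alternative run.

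LAMP1 and LAMP2 are the heavily glycosylated proteins that line the lysosomal membrane. Lamp1 held 614, 615, 623 and 653 CPM in nulliparous liver and 716, 742 and 746 CPM in lactation, with no overlap, and rose by 0.23 ± 0.07 on the log2 scale (edgeR adjusted p = 0.0402). That call was lost without any of the 3 lactation animals or NUL_221, NUL_226 or NUL_227 (up to 0.127), with no filter, on log2(TPM + 1), and in a fit of the compared groups alone. Lamp2, whose product also takes up proteins in chaperone-mediated autophagy, held 561, 565, 586 and 616 CPM at involution day 4. At day 6 it ran from 434 to 534 CPM with a median of 443 CPM, below every library of day 4. The fall of 0.33 ± 0.07 on the log2 scale (adjusted p = 0.00430) passed under every alternative run.

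Psap encodes prosaposin, the precursor of the saposins that help hydrolases reach sphingolipids. It held 486, 505, 533 and 541 CPM in nulliparous liver and 609, 615, 649 and 668 CPM at involution day 4, with no overlap, a rise of 0.30 ± 0.08 on the log2 scale (edgeR adjusted p = 0.0236). The call was lost without ID4_13 or ID4_211 or NUL_220 or NUL_221 (up to 0.0791) and under 4 other alternatives (up to 0.0731). Npc2, which hands cholesterol to NPC1 for export from the lysosome, held 79.4, 80.0, 80.3 and 89.8 CPM in nulliparous liver and 94.0, 107 and 107 CPM in lactation. All lactation libraries were higher, by 0.31 ± 0.08 on the log2 scale (adjusted p = 0.0116), and the call was lost without LAC_200 or LAC_213 (up to 0.0627).

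The membrane transporter Npc1, the acid lipase Lipa, the calcium channel Mcoln1 and the proton pump subunit Atp6v0d1 were called by edgeR in no test. Lipa was the flattest of the 34, with stage means within a ratio of 1.07, and Npc1 the most spread of these, at 1.36. Atp6v1a, the catalytic subunit of the V-ATPase that acidifies the lysosome, passed the joint test (edgeR adjusted p = 0.0454) and no comparison of 2 stages. Its nulliparous libraries held 52.0, 54.7, 58.2 and 60.2 CPM and its regressed libraries 47.0, 48.7, 49.1 and 50.5 CPM, with no overlap. The difference of -0.20 ± 0.06 on the log2 scale had an adjusted p of 0.301.

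Gabarapl1, a member of the GABARAP branch of the proteins attached to the autophagosome membrane, showed the largest difference between stages of any member (chromosome 6, 129533160 to 129542346). Its nulliparous libraries held 297, 298, 315 and 345 CPM, lactation held 261, 289 and 301 CPM, and involution day 2 held 233, 285 and 303 CPM. Involution day 4 held 419, 505, 511 and 579 CPM. Day 6 ran from 263 to 413 CPM with a median of 349 CPM. Every library of involution day 4 was above every library of the other 6 stages.

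Gabarapl1 at involution day 4 was 60.6% above nulliparous liver (log2 fold change 0.68 ± 0.14, edgeR adjusted p = 0.00344) and 84.1% above involution day 2 (0.88 ± 0.15, adjusted p = 0.00155). It then fell by 0.56 ± 0.12 on the log2 scale to involution day 6 (adjusted p = 0.00615). The differences from nulliparous liver and from involution day 6 passed under every alternative run, and that from involution day 2 was lost with the clock genes as a covariate (0.128). The deposited counts of Gabarapl1 were not whole numbers in any of the 27 libraries, as arises where RSEM shares reads with transcripts of other genes. How uncertain this makes them was not measured.

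The other members of this protein family differed less between stages. Gabarap held 154 to 177 CPM in nulliparous liver and 181 to 209.4 CPM at involution day 4, without overlap, and the log2 fold change of 0.21 ± 0.08 was not called (edgeR adjusted p = 0.140). Gabarapl2 was called by edgeR in no test. Map1lc3a, an LC3 gene, passed the joint test (adjusted p = 0.0110) and no comparison of 2 stages, with its highest libraries in lactation (39.3, 40.0 and 40.6 CPM) and a low range at involution day 6 (24.7 to 29.7 CPM, median 28.0 CPM). Those groups did not overlap. At involution day 8 it spread widely, with 22.8, 36.9 and 37.2 CPM. Map1lc3b, the LC3B gene, went from 90.2 to 104 CPM (median 96.2 CPM) at involution day 6 to 94.2, 122 and 137 CPM at day 8, and these groups overlapped. Its difference of 0.28 ± 0.08 on the log2 scale (adjusted p = 0.0405) was lost in 5 of 9 fits that left out a library, up to 0.361 without ID8_101b; the others were ID8_98b and ID6_209, ID6_230 and ID6_232. It was lost under 4 other alternatives as well.

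**Figure D4:**
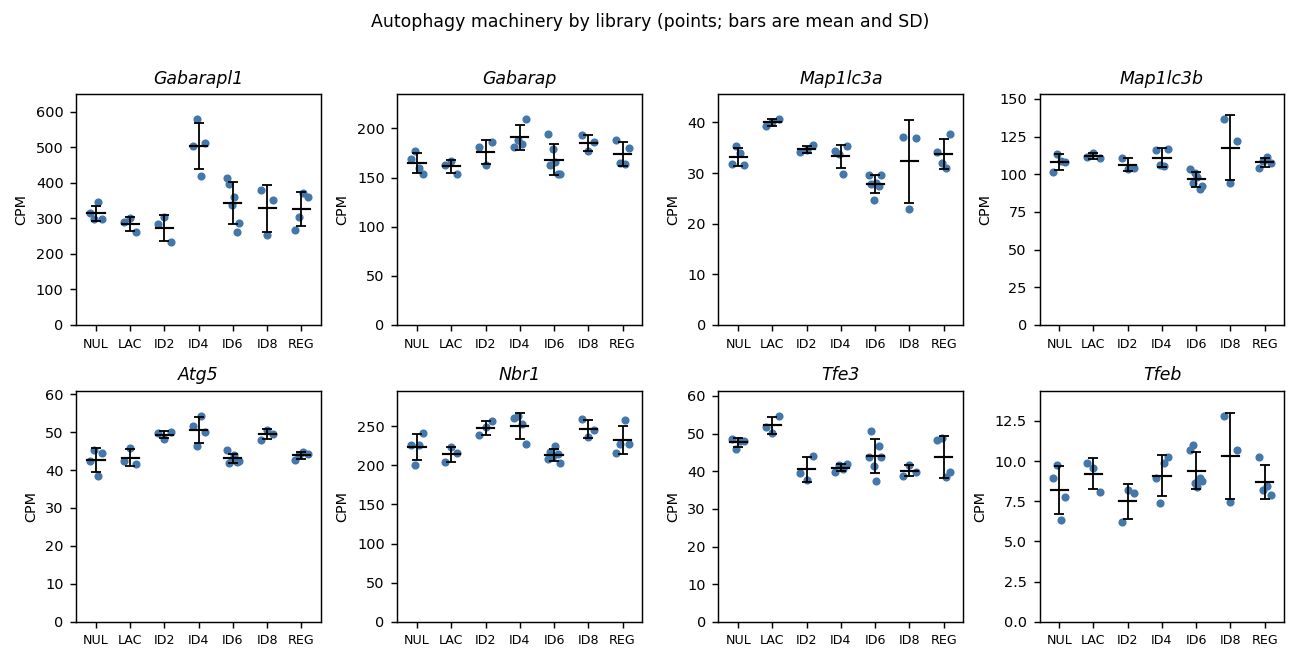
Level of 8 autophagy members in each library (CPM, vertical axis from 0) by stage (horizontal axis), with bars for the mean and SD of each stage. The Gabarapl1 libraries of involution day 4, at 419 to 579 CPM, sit above all others, while Tfeb stays between 6.23 and 12.8 CPM in all 27 libraries.

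Of the conjugation genes, Atg5 was called by edgeR and Atg3, Atg7, Atg12 and Atg16l1 were not. Atg5, which joins Atg12 in the complex that directs lipidation of LC3, held 38.3, 42.4, 44.4 and 45.3 CPM in nulliparous liver and 46.2, 49.9, 51.6 and 54.2 CPM at involution day 4. The groups did not overlap, and Atg5 rose by 0.25 ± 0.06 on the log2 scale (edgeR adjusted p = 0.0197). By involution day 6 it ran from 41.9 to 45.2 CPM with a median of 42.6 CPM, all below day 4, a fall of 0.23 ± 0.06 (adjusted p = 0.0108). The rise was lost without ID4_13 or ID4_211 or NUL_226 (up to 0.0915) and under 3 other alternatives (up to 0.210). The fall was lost without ID4_211 (0.0542) and on log2(TPM + 1) (0.350).

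Among the cargo receptors, Nbr1 held 226.6, 252, 259.9 and 263 CPM at involution day 4 and 202.6 to 225 CPM with a median of 212.9 CPM at day 6. The groups did not overlap, and Nbr1 fell by 0.23 ± 0.07 on the log2 scale (edgeR adjusted p = 0.0256). This call was lost without ID4_13, ID4_15 or ID4_211 or ID6_232 (up to 0.0877) and under 5 other alternatives (up to 0.580). Sqstm1 ranged from 456 to 659.7 CPM over the 27 libraries and was called by edgeR in no test. The initiation genes Ulk1 and Becn1 and the lipid-binding Wipi1 were not called by edgeR either, while DESeq2 called Becn1 and Wipi1 in 2 comparisons each. The stage means of Wipi1 had the widest ratio of the members that edgeR called nowhere, at 1.41, with 11.7, 12.6 and 13.7 CPM in lactation against 8.16 to 11.5 CPM in nulliparous liver. Its log2 fold change of 0.38 ± 0.13 had an adjusted p of 0.0629 in edgeR and 0.0454 in DESeq2.

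Tfe3, which together with Tfeb acts on lysosomal genes, held 50.1, 51.8 and 54.7 CPM in lactation and 37.7, 39.6 and 44.2 CPM at involution day 2, with no overlap. It fell by 0.37 ± 0.10 on the log2 scale (edgeR adjusted p = 0.00995). The call was lost without ID2_31 (0.0585), the animal with the high pancreas sum, and on log2(TPM + 1) (0.115). At involution day 4, when 5 lysosomal members were higher than in nulliparous liver, Tfe3 held 39.8, 40.5, 41.5 and 41.8 CPM against 45.8 to 48.6 CPM, a log2 fold change of -0.22 ± 0.08 that was not called (adjusted p = 0.134) and was called with the clock genes as a covariate (-0.28, adjusted p = 0.0355). Tfeb held 7.37 to 10.2 CPM at that stage and 6.33 to 9.77 CPM in nulliparous liver, and was called by edgeR in no test.

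In the joint test, the wider lists gave counts for each branch of the pathway. Of 48 other lysosomal genes 25 passed, as did 6 of 33 other autophagy genes, 5 of 15 other V-ATPase subunits and 5 of 27 genes of nutrient sensing at the lysosome, against 27% of all genes. No difference between the lists was tested.

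At lactation day 10, 6 of the 48 other lysosomal genes were higher and 5 lower (11.2% of all genes were called, 5.19% as higher), with Gm2a and the sulfatase Galns (0.82) the highest and the protease Ctsc (-0.63) and the chloride-proton exchanger Clcn7 (-0.59) the lowest. On log2(TPM + 1) limma called 3 higher and 9 lower, and 36.3% of its 1425 calls over all genes were higher. Between lactation and involution day 2, 12 of the 48 were higher and 3 lower, against 8.48% and 7.64% of all genes; Clcn7 (0.83) and the iduronidase Idua (0.80) led the first and Gm2a and Galns (-0.69) the second. At involution day 4, 6 of the 48 were higher than in nulliparous liver and 0 lower, against 2.64% of all genes called as higher. From day 4 to day 6, 6 were lower and 0 higher, against 4.64% of all genes called as lower, with Clcn7 (-0.50) the lowest. There limma on log2(TPM + 1) called 1 higher and 1 lower, and 82.2% of its 1655 calls over all genes were higher.

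Among the other autophagy genes, 3 of 33 were called at involution day 4, against 4.25% of all genes. Of the partners of Beclin 1, Atg14 was 0.46 ± 0.09 and the lipid kinase Pik3c3 0.32 ± 0.08 above nulliparous liver on the log2 scale (edgeR adjusted p = 0.00170 and 0.0172). Epg5, a factor of autophagosome fusion, was lower, with a log2 fold change of -0.42 ± 0.11 (adjusted p = 0.0233). On log2(TPM + 1), limma called 1 of the 33 higher and 0 lower, where it called 518 genes in all, 46.1% of them higher. Atg14 was called again at involution day 8 (0.47 ± 0.09, adjusted p = 0.0148). In nutrient sensing, 2 of 27 genes were higher at involution day 4 (2.64% of all genes were), the folliculin gene Flcn (0.61) and the leucine sensor gene Sesn2 (0.32), where limma on log2(TPM + 1) called 1 lower. The other V-ATPase subunits had 4 of 15 lower at involution day 2 than in lactation (7.64% of all genes were), among them Atp6v1g1 (-0.51) and Atp6v1d (-0.38).

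**Figure D5:**
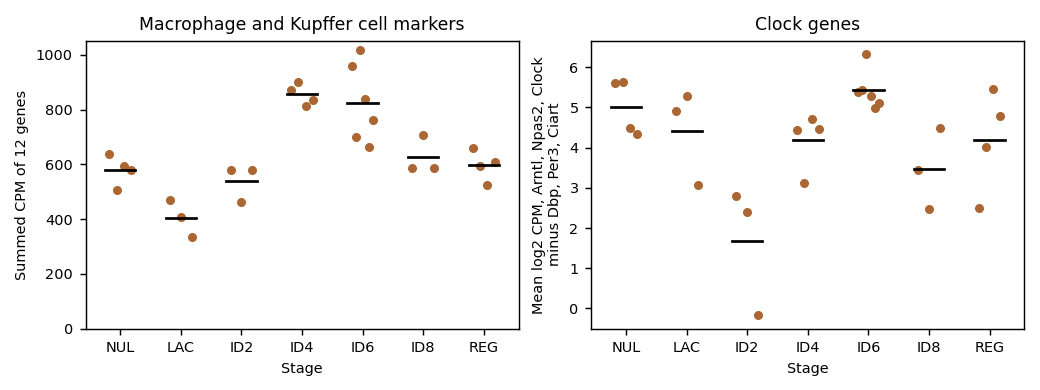
Summed level of 12 macrophage and Kupffer cell markers (CPM, left) and the clock measure (log2 difference, right) in each library (points) by stage (horizontal axis), with lines for the stage means. The macrophage and Kupffer cell sum runs from 336 to 470 CPM in lactation and from 812 to 901 CPM at involution day 4, with 507 to 639 CPM in nulliparous liver.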

How the data were processed

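Liver RNA of 27 mice was sequenced from NEBNext libraries, per the labels' protocols. The submitters' processing notes name STAR 2.6.1a, RSEM 1.3.1 and the build mm10 (GRCm38); the annotation and the strand setting are not given in the sources used here. The authors deposited, per gene and library, RSEM expected counts, TPM, FPKM and effective lengths. FPKM was not analysed here. The members and gene lists were chosen with earlier results of these data known.

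Expected counts were rounded, filtered with filterByExpr by stage (16428 genes kept), scaled by TMM and fitted with edgeR 4.0.16 (R 4.3.3; glmQLFit, robust; glmQLFTest) over all 27 libraries, with no covariate. Benjamini-Hochberg adjustment ran over all genes tested, and an adjusted p under 0.05 counts as called. The 11 comparisons set each stage against nulliparous liver and each against the stage before it. CPM values use the TMM scaling. The biological coefficient of variation was 0.190. P-values measure the spread between these animals, and no pair of libraries of the same stage agreed within sampling noise. The fits were tested on simulated data.

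Members called in any test were described in full, the others by range and count; genes of other lists are named for the 2 highest and 2 lowest called fold changes of a comparison, at most 4 a list, and some that this rule picks are not reported here. Alternatives were RLE scaling, DESeq2 1.42.0, no filter, limma 3.58.1 on log2(TPM + 1), effective length as an offset, the name number (under 200 or not) or a clock measure as a covariate, the compared groups alone, and leaving out each library. Promoters are from RefSeq; 6 members (Atg16l1, Npc1, Map1lc3a, Atg12, Becn1 and Ctsb) had no window.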

Additional observations from a re-analysis of the deposited data

Results flagged for a closer look

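In groups of 4 to 6 animals, 9 of 136 member and stage combinations had 1 library far from the rest of its group by Dixon's test; chance gives about 1 in 20. At involution day 4, ID4_15 was highest for Ulk1 (80.84 CPM, next 55.69 CPM), ID4_211 for Sqstm1 (641.0 CPM, next 610.7 CPM) and ID4_215 for Npc2 (99.32 CPM, next 85.34 CPM). In nulliparous liver, NUL_220 was highest for Npc2 (89.78 CPM, next 80.26 CPM). At involution day 6, ID6_216 was lowest for Becn1 (50.59 CPM, next 54.54 CPM) and highest for Atp6v0d1 (57.18 CPM, next 50.15 CPM). In the same stage ID6_209 was highest for Atg16l1 (43.16 CPM, next 34.20 CPM), ID6_218 was highest for Lipa (258.4 CPM, next 233.9 CPM), and ID6_232 was lowest for Ctsl (584.0 CPM, next 703.0 CPM). Of these genes, Npc2 and Ctsl have comparisons called by edgeR that involve the group concerned; without ID6_232 the Ctsl difference between involution days 6 and 8 was not called, while the Npc2 call in lactation did not depend on NUL_220.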

How the results depend on the processing

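The fold change of each called member kept its sign under every alternative run. The joint count of 15 members was between 11 and 21 under the alternatives that keep all libraries. Against nulliparous liver at involution day 2, the 2 called members became 1 with the name number as a covariate, 0 with the clock measure and 4 in DESeq2. At involution day 4 the 7 members became 3 on log2(TPM + 1). At involution day 6 the 1 member became 4 on log2(TPM + 1), 3 in DESeq2 and 0 in a fit of the compared groups alone. Between lactation and involution day 2 the 4 members became 7 in DESeq2, and between involution days 2 and 4 the 3 became 0 with the clock measure. Between involution days 6 and 8 the 2 members became 1 with no filter, 0 with the name number, 6 in DESeq2 and 0 in a fit of the compared groups alone. The cause was not tested.

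Leaving out each library in turn gave 12 to 17 members in the joint test, the lowest without any of the 3 lactation animals. Against nulliparous liver it gave 4 to 6 at lactation day 10 (4 without any lactation animal), 1 to 2 at involution day 2 (1 without ID2_39), 5 to 7 at day 4, 0 to 4 at day 6 (4 without ID6_230), and 0 to 0 at day 8 and in the regressed liver. It gave 2 to 5 between lactation and involution day 2 (2 without ID2_31), 2 to 3 between days 2 and 4, 4 to 8 between days 4 and 6 (4 without ID4_211, 8 without ID6_201), 0 to 3 between days 6 and 8 (0 without ID6_209, ID6_232 or ID8_101b, 3 without ID6_218), and 0 to 0 between day 8 and the regressed liver. At involution day 6 the call was lost without ID6_216, ID6_232, NUL_221 or NUL_227. No paired analysis was possible because no animal number occurs in more than 1 group. Groups of 3 to 6 animals limit the precision, and counts that are not whole (Gabarapl1, Sqstm1 and Ctsa in all 27 libraries) carry an added uncertainty of read assignment.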
